A study of Mus musculus with 4 samples.

Results

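A set of 9 genes that mark universal fibroblasts was followed in the mouse mammary mesenchyme before and at birth: Pi16, Dpp4, Cd34, Cd55, Ly6c1, Anxa3, Limch1, Efhd1 and Dact2. They were chosen by name, 9 of the 30406 genes listed at every stage, and all 9 were found. Mesenchymal cells were taken as cells with at least 5000 UMIs (unique molecular identifiers, each standing for 1 captured transcript), at most 6% mitochondrial UMIs, and at least 10 UMIs of Col1a1, Col1a2 and Col3a1 that also exceeded 2 times the sum of Epcam, Krt8, Krt18, Krt5 and Krt14. This left 704 of the 1630 cells that passed the depth and mitochondrial limits. Pi16 and Dpp4 were nearly undetected in these cells before birth (E13.5 to E15.5) and were found in close to equal numbers of cells at P0, mostly in the same cells, whereas Cd34 and Limch1 were present at every stage.

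Universal fibroblasts are fibroblasts with a similar expression program in many organs, and a branch of them marked by Pi16 and Dpp4 lies in the outer connective tissue and around vessels. In subcutaneous fat, Dpp4-positive cells are known as early mesenchymal progenitors that can give rise to committed preadipocytes. Several of the products sit at the cell surface: Dpp4 encodes a membrane-bound dipeptidyl peptidase, Cd34 a sialomucin of progenitor and endothelial cells, Cd55 an inhibitor of complement, and Ly6c1 a small lipid-anchored protein of the Ly6 family.

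The start-site regions of 4 of the genes are shown, picked for their levels by stage. Pi16, Dpp4 and Ly6c1 were at a trace or 0 in embryonic mesenchymal cells of at least 5000 UMIs and high at P0. Cd34 was there before birth. The sequences are RefSeq's on GRCm38.p6 and run 5′ to 3′ on the gene's strand, from 250 bases before to 50 bases after the annotated start. Capitals mark matches on either strand to any of 6 motifs, namely the TATA box with letters TATAAA, the CCAAT box, the GC box with letters GGGCGG, the AP-1 motif with letters TGANTCA, the TEAD motif with letters GGAATG and the palindromic EBF motif. Pi16 lies at chr17:29318632-29318931 on the plus strand, Dpp4 at chr2:62412182-62412481 on the minus strand, Cd34 at chr1:194938571-194938870 on the plus strand and the first Ly6c1 entry at chr15:75048788-75049087 on the minus strand.
Pi16: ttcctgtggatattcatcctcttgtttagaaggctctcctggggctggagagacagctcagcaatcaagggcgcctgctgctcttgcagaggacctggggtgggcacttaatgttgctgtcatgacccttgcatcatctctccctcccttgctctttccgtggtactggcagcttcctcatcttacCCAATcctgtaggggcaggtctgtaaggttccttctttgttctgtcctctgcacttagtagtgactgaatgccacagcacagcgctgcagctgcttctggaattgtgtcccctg
Dpp4: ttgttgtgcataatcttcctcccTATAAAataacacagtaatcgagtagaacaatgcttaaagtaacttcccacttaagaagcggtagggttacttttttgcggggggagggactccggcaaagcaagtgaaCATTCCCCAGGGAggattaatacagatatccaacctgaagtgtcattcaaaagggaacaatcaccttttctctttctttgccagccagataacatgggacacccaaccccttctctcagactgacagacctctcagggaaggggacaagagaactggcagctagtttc
Cd34: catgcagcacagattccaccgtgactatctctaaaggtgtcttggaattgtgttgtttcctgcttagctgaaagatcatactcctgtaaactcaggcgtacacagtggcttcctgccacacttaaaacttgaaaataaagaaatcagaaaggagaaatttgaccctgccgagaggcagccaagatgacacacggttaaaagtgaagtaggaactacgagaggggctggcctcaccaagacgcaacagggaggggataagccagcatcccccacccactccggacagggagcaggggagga
Ly6c1: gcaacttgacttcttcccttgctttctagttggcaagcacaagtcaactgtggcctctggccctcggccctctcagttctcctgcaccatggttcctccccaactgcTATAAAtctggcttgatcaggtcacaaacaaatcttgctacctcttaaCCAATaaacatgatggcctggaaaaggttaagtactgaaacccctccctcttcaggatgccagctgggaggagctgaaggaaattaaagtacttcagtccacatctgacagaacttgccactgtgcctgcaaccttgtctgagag

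The Pi16 region held 1 match, a CCAAT box that begins at position -64 from the start, and Cd34 held none of the 6 motifs. Dpp4 held the TATA letters at position -227 and the only EBF match among these genes, at -115, which overlaps a TEAD match on the other strand at -118. Of 32851 RefSeq start regions of the same length, 0.904% held the EBF letters, 14.7% the TEAD letters, 13.6% the TATA letters and 37.4% a CCAAT box. A GC box, held by 35.7% of all regions, was found in Cd55, Limch1, Efhd1 and Dact2 and in none of the regions printed, and the AP-1 letters, held by 7.81%, were found in none of the 8 genes with a region. The regions of Pi16, Dpp4, Cd34 and Ly6c1 held 3, 4, 7 and 1 CpG, against a median of 7 over all regions, while Cd55, Dact2, Efhd1 and the first Limch1 region held 12, 23, 24 and 35. A match describes letters only, and no factor was measured. All 9 are protein-coding genes. Pi16 (ENSMUSG00000024011) spans chr17:29317680-29330593 on the plus strand and Dpp4 (ENSMUSG00000035000) chr2:62330073-62412231 on the minus strand of GRCm38, so the RefSeq start of Pi16 lies inside the GENCODE gene.

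The cells came from mammary rudiments or glands of wild-type C57B6 female mice (substrain B6/N in the study's methods) at 3 embryonic stages (E13.5 with E14.5 and E15.5) and at P0, the day of birth, each as 1 library, and none carried a genetic change or received a treatment. Per the study's methods, tissue of several female embryos from more than 1 litter was pooled, each stage was dissected in a separate session, and cells positive for CD45, CD31 or Ter119 were removed before epithelial and mesenchymal cells were sorted by EpCAM. P0 tissue was digested with other enzyme amounts and had red blood cells lysed, which the embryonic tissue had not. No stage has a second library, so the values have no replicate check, stage and library cannot be told apart, and all intervals cover counting error only. From the earliest stage to P0 the gate gave 129, 31, 279 and 265 mesenchymal cells, with median depths of 16573, 24268, 24324 and 8778 UMIs. No barcode was shared among the cells kept. Epithelial cells, gated the same way in reverse, served as the comparison within each library and numbered 98, 45, 526 and 229, with median depths of 18967.5, 26725, 24718.5 and 9980 UMIs. Of the 6 fibroblast markers, Col1a1, Col1a2 and Col3a1 set the mesenchymal gate, so their detection is no check of it. Pdgfra, Dcn and Lum, which do not set it, were detected in the gated cells at every stage. The pan-leukocyte gene Ptprc was at 0 at every stage, and the 6 immune markers together had 11, 2, 9 and 3 UMIs from E13.5 to P0. The 6 endothelial markers summed to 15.2 to 36.2 CPM (counts of a gene per 1000000 UMIs). The 6 mural markers, of cells in the vessel wall, summed to 56.5, 75.2, 28.3 and 108 CPM in the same order. At least 2 UMIs of them were found in 27, 15, 45 and 66 of the mesenchymal cells. The 6 epithelial markers summed to 43.0 CPM at E14.5 and 344 CPM at P0, and their part in the levels given here was not tested beyond leaving out all cells with such UMIs.

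The E15.5 library stood apart in its shallow barcodes. Of its 2642 deposited barcodes, 375 passed the collagen gate with fewer than 2000 UMIs (median 687), and these held 649 Pi16 UMIs, or 2310 CPM (95% Poisson interval 2136 to 2495), against 11 UMIs and 1.55 CPM in the 279 mesenchymal cells of the same library. Pi16 was detected in 57.6% of the shallow barcodes and both Pi16 and Dpp4 in 43 of them. Dpp4 reached 246 CPM, Cd34 1289, Cd55 288, Ly6c1 523, Anxa3 2357 and Efhd1 96.1 CPM in the shallow barcodes, while Limch1 was at 32.0 CPM against 28.1 CPM in the deep cells (ratio 1.14, 0.513 to 2.20), and Dact2 had 0 UMIs. Most of the 9 genes were thus higher in the shallow barcodes than in the deep cells of the same library. The share of all genes higher in the shallow barcodes was not taken. The collagen gate asks for the same minimum of UMIs at any depth. A shallow barcode thus needs a larger share of collagen UMIs to pass, and the part of this selection in these differences was not tested. Only 6 collagen-gated barcodes lay between 2000 and 5000 UMIs at E15.5, with 0 Pi16 UMIs. Under 2000 UMIs the gate held 7 barcodes at E13.5 and 14 at E14.5, all with 0 Pi16 UMIs, while the 79 such barcodes of P0 held 197 CPM of Pi16. Xist, the RNA that coats the inactive X chromosome in female cells, was at 470 CPM in the E15.5 shallow barcodes and at 935 CPM in the deep cells (ratio 0.502, 95% interval 0.420 to 0.597). Where the shallow barcodes came from was not tested. The values that follow use cells with at least 5000 UMIs, and the ratios of P0 to E15.5 are also given without that minimum for those of the 9 genes it moves most.

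**Figure D1:**
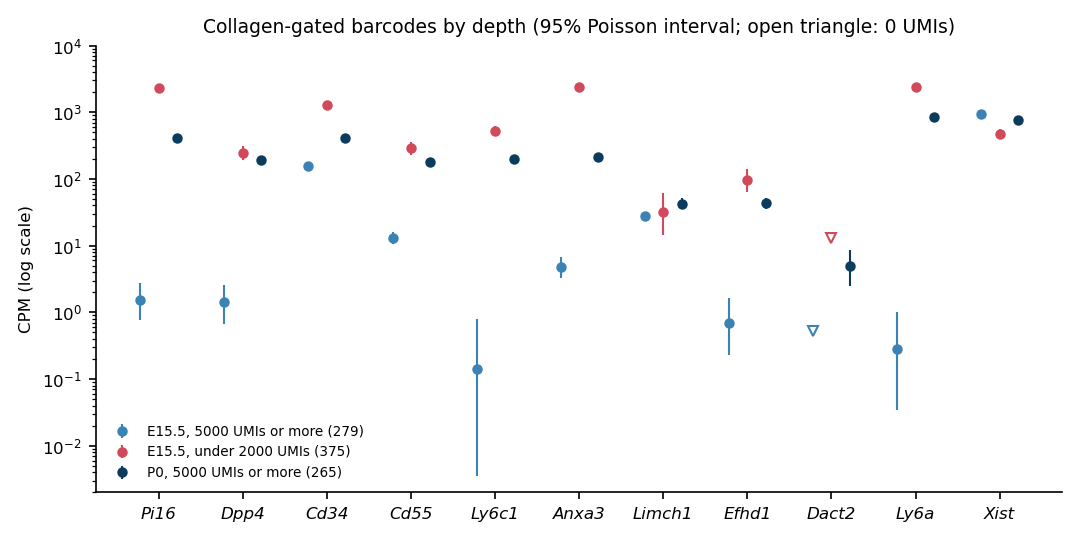
Level of each universal fibroblast gene, of Ly6a and of Xist (CPM, log scale, with 95% Poisson intervals) in collagen-gated barcodes of E15.5 with 5000 UMIs or more (279 barcodes), of E15.5 under 2000 UMIs (375) and of P0 with 5000 UMIs or more (265). In the E15.5 shallow barcodes Pi16 stood at 2310 CPM, above the 407 CPM of P0 cells, and an open triangle marks an upper limit where no UMI was found.

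Which of the genes were present before birth was asked with every cell thinned at random to 5000 UMIs, because the P0 cells were shallower than the embryonic ones. A gene was called present when at least 10% of the thinned mesenchymal cells held a UMI. Before birth, 2 of the 9 genes were present at each stage, Cd34 and Limch1 every time. Of 13704 genes, 43.6%, 41.1% and 39.2% were present at the same stages in order. At P0, 8 of the 9 were present, all but Dact2, against 34.5% of all genes. The presence of Limch1 at E15.5 rested on a thinned share of 10.8%, just inside the limit. When 1 cell was left out and the others were thinned anew, only Cd34 was present there. The random draw differed too, so this change cannot be credited to that cell. Cd55 at E14.5, at 9.68%, was just outside it.

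**Figure D2:**
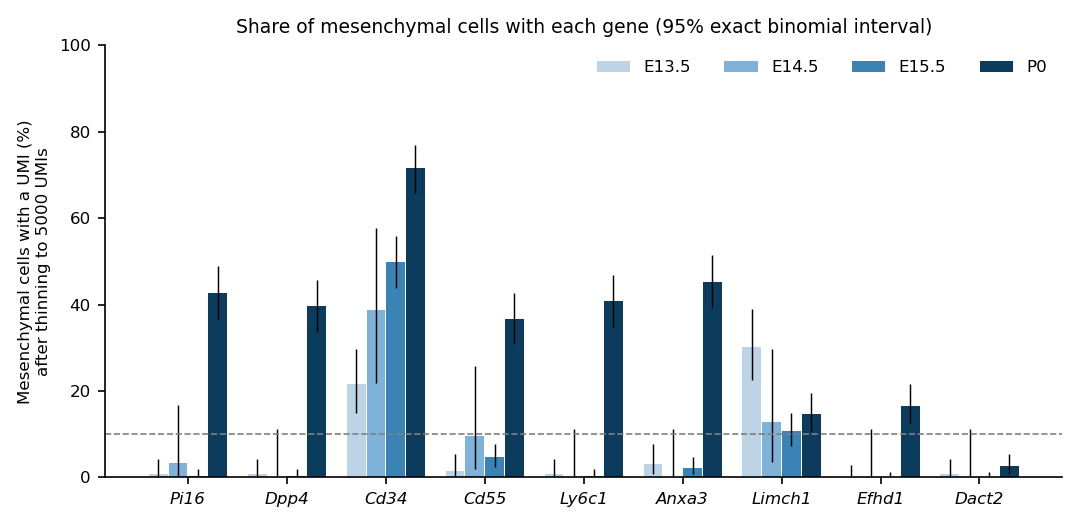
Share of mesenchymal cells with a UMI of each gene after thinning to 5000 UMIs (percent, with exact 95% binomial intervals), by stage; the dashed line is the 10% limit for presence. Only Cd34 and Limch1 lie above the line before birth, and at P0 only Dact2, at 2.64%, lies below it.

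Pi16 encodes peptidase inhibitor 16, a protein of the CAP superfamily. It had 2 UMIs in 2 of 129 E13.5 cells, 5 UMIs in 4 of 31 E14.5 cells, 11 UMIs in 3 of 279 E15.5 cells and 1001 UMIs in 125 of 265 P0 cells. These correspond to 0.855, 5.97, 1.55 and 407 CPM (P0 interval 383 to 433). The P0 level was 476 times that of E13.5 (95% interval 132 to 3938), 68.3 times that of E14.5 (29.2 to 211) and 263 times that of E15.5 (146 to 529). The P0 value stood apart from all embryonic values, and among the latter E13.5 and E15.5 could not be separated (ratio 1.81, interval 0.395 to 16.8). At P0, 47.2% of cells held Pi16 (exact 95% binomial interval 41.0 to 53.4; 42.6% thinned), with a median of 6 UMIs in those cells and up to 42. In epithelial cells of the same library the share was 3.49%. The 4 cells of E14.5 are 12.9% of 31 (3.63 to 29.8; 3.23% thinned), against 2.22% of epithelial cells. Of these 4 cells, 2 were called doublets, and they held 1 and 2 of the 5 UMIs. The ratio of P0 to E14.5 ranged from 46.8 to 139 over 16 other settings. At E13.5 the share of 1.55% was near the epithelial 1.02%, and mesenchyme and epithelium could not be separated (ratio 1.75, 0.0909 to 103).

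At E15.5, 9 of the 11 Pi16 UMIs lay in a single cell, and without it the level was 0.283 CPM and the P0 level was 1442 times higher. Without the UMI minimum, E15.5 Pi16 was at 89.1 CPM and the ratio of P0 to E15.5 was 4.33. The size of the Pi16 difference between E15.5 and P0 thus depended on which barcodes were counted, and in the shallow E15.5 barcodes taken alone Pi16 was above its P0 level, as given above.

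Dpp4, the surface peptidase that trims dipeptides from other proteins, had 3, 1 and 10 UMIs at the embryonic stages in order, in 3, 1 and 5 cells, and 471 UMIs in 127 cells at P0. Its levels were 1.28, 1.19, 1.41 and 192 CPM, so the embryonic values did not differ beyond counting error while P0 lay far above them. P0 was 149 times E13.5 (50.8 to 727), 161 times E14.5 (28.7 to 6358) and 136 times E15.5 (73.4 to 286), or 17.3 times E15.5 without the UMI minimum. At P0, 47.9% of cells held Dpp4 (39.6% thinned), against 2.62% of epithelial cells. At E15.5 the share of mesenchymal cells with Dpp4, 1.79%, was below the 4.18% of epithelial cells, which held 46 UMIs.

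Among the surface proteins, Cd34 was the gene that was already high in the embryo. It had 112, 77, 1109 and 999 UMIs in order of stage (52 cells at E13.5, 211 cells at P0), or 47.9, 91.9, 156 and 407 CPM. With all UMIs each stage was above the one before it beyond counting error: E14.5 over E13.5 was 1.92 (1.42 to 2.59), E15.5 over E14.5 1.70 (1.35 to 2.17) and P0 over E15.5 2.61 (2.39 to 2.84). The last ratio was 1.95 without the UMI minimum. After thinning, the E14.5 and E15.5 levels were 129 CPM (78.8 to 199) and 146 CPM (126 to 167), with overlapping intervals. Epithelial cells had no Cd34 UMI at the first pair of stages, then 4 and 3 UMIs, and at P0 mesenchyme was 354 times higher (121 to 1717).

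Cd55 had low but counted levels in the embryo, at 2.99, 14.3 and 13.2 CPM in order of stage, and 179 CPM at P0. P0 was 60.0 times E13.5 (28.9 to 150), 12.5 times E14.5 (7.10 to 24.4) and 13.6 times E15.5 (10.8 to 17.1), or 7.35 times E15.5 without the UMI minimum. Of the 12 UMIs at E14.5, 8 and 2 lay in 2 cells called doublets, and the ratio to E14.5 ranged from 8.31 to 66.2 over 16 other settings. At E15.5 Cd55 was already 13.4 times higher in mesenchyme than in epithelial cells (7.59 to 25.4). Without the cell that held most of the E15.5 Pi16, the E15.5 level of Cd55 in mesenchyme was 9.32 CPM (7.21 to 11.9). Of the 90-base windows in the last 500 bases of Cd55 transcripts, 8.70% also occur in Cd55b. A part of the Cd55 reads thus cannot be assigned to 1 of these genes.

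Ly6c1 had 1 UMI at E13.5, 0 in the 31 cells at E14.5, which allows a share of cells with a UMI of up to 9.68% (3 of 31), and 1 UMI at E15.5. At P0 it had 496 UMIs in 133 cells, 50.2% of the cells (40.8% thinned) and 202 CPM. The ratio of P0 to E13.5 was 472 (84.3 to 18680), that to E15.5 was 1434 (256 to 56771) and P0 was at least 56.4-fold higher than E14.5, taking 3 counts as the limit that 0 UMIs allow. Without the UMI minimum the ratio to E15.5 was 9.42. Of its 3′ windows 13.8% also occur in Ly6c2 or Ly6a, and Ly6c2, its near-identical neighbour, had 0 UMIs at P0. Ly6a, which encodes the stem cell antigen Sca-1, had 0, 0 and 2 UMIs in the embryonic mesenchyme and 2063 at P0 (840 CPM).

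Of the genes with intracellular products, Anxa3, a calcium-dependent membrane-binding annexin, was higher in epithelial than in mesenchymal cells. In mesenchyme it was at 11.1, 3.58, 4.78 and 212 CPM at the 4 stages, and in epithelial cells at 25.5, 43.2, 192 and 394 CPM. The ratio of mesenchyme to epithelium was 0.0249 (0.0172 to 0.0349) in E15.5 cells and 0.540 (0.485 to 0.600) in P0 cells, but the E15.5 ratio was 0.492 without the UMI minimum. At P0 51.3% of mesenchymal cells held it, below the 89.1% of epithelial cells, and the part of free epithelial RNA in this share was not tested. The mesenchymal level at P0 was 19.1 times that of E13.5 (12.9 to 29.5) and 59.3 times that of E14.5 (20.2 to 289). All 3 UMIs of E14.5 lay in 2 cells called doublets, and the ratio to E14.5 ranged from 10.1 to 93.7 over 16 other settings. It was 44.4 times higher at P0 than at E15.5 (31.4 to 64.8), or 2.13 times without the UMI minimum. The ratio to E15.5 was at least 41.0 under each of 16 other settings that kept a minimum, including leaving out every mesenchymal cell with a keratin or Epcam UMI. Without the cell that held most of the E15.5 Pi16, Anxa3 was at 2.54 CPM.

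Limch1, which encodes an actin- and myosin-associated LIM and calponin domain protein, had its highest level at the earliest stage. Its levels were 94.1, 63.2, 28.1 and 42.7 CPM in order of stage. At E14.5, 26 of the 53 UMIs lay in 1 cell, and 12.9% of the thinned cells held it (3.63 to 29.8). E15.5 was 0.299 times E13.5 (0.246 to 0.364), and P0 was 0.454 times E13.5 (0.356 to 0.576) but 1.52 times E15.5 (1.19 to 1.93). The P0 to E14.5 ratio of 0.676 turned above 1 under 4 alternatives, including the removal of 9 cells called doublets at E14.5. Limch1 was the only one of the genes whose level was higher at E13.5 than at P0.

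Efhd1, a mitochondrial calcium-binding protein gene, had 2, 0 and 5 UMIs in the embryonic mesenchyme and 106 in 62 cells at P0 (43.1 CPM). P0 was 61.3 times E15.5 (25.5 to 193), or 9.61 times without the UMI minimum, and 4 of the 5 UMIs at E15.5 lay in the cell that held most of the Pi16. At P0 its share in mesenchyme, 23.4%, was close to that in epithelial cells, 20.1%, and mesenchyme was 1.84 times higher in level (1.33 to 2.57). Dact2, an antagonist of Dishevelled in Wnt signaling, was scarce throughout, with 4, 0, 0 and 12 UMIs. Its P0 share of 3.40% was below the 8.73% of epithelial cells.

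Counted together, 7 of the 9 genes were at least 2-fold higher at P0 than at each of the 3 embryonic stages, with 10 CPM added to both sides. These were all but Limch1 and Dact2, and none was 2-fold lower. Among all genes with at least 10 UMIs, 7.99%, 7.88% and 7.01% were as much higher at P0 (over E13.5, E14.5, then E15.5), and 15.4%, 18.6% and 9.83% as much lower. The median log2 ratio of the 9 genes was 3.40, 2.96 and 3.03 on this scale, and that of all genes was -0.33, -0.36 and -0.18. The comparisons share the P0 library, so they are not independent of each other. Without the UMI minimum the count over E15.5 was 6.

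**Figure D3:**
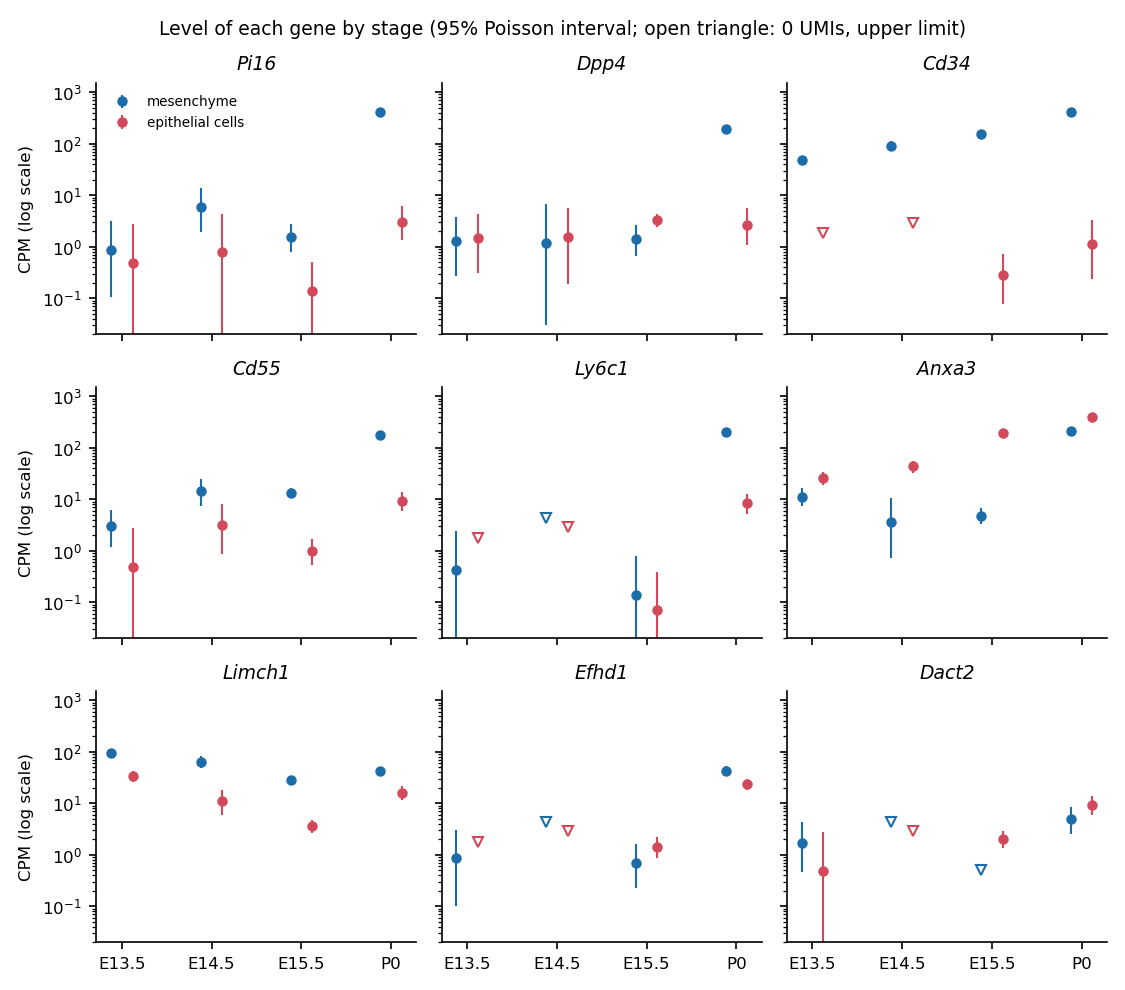
Level of each gene in mesenchymal cells and in epithelial cells by stage, in CPM on a log scale with 95% Poisson intervals; an open triangle is the upper limit where no UMI was found. Among these cells of at least 5000 UMIs, Pi16, Dpp4 and Ly6c1 are high in mesenchyme only at P0 (407, 192 and 202 CPM). Cd34 is at 47.9 CPM already at E13.5, and Anxa3 is higher in epithelial cells at every stage. The collagen-gated E15.5 barcodes under 2000 UMIs, not shown here, held 2310, 246 and 523 CPM of Pi16, Dpp4 and Ly6c1.

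Against the epithelial cells of the same library, 2 of the 9 genes were at least 2-fold higher in mesenchyme at E13.5, when 9.33% of all genes were, and none was 2-fold lower (5.06% of all genes). These were Cd34 and Limch1, and the same pair was counted at E14.5 (12% of all genes higher, 8.32% lower), with Anxa3 lower. Cd55 joined them at E15.5 (6.97% of all genes higher, 6.18% lower), again with Anxa3 lower. At P0 the count was 6 (9.83% of all genes higher, 10.8% lower) with none lower, and Pi16 was 133 times higher in mesenchyme (67.2 to 309), Dpp4 71.4 times (34.4 to 179), Ly6c1 23.9 times (15.6 to 38.5), Cd55 19.5 times (12.9 to 30.8) and Limch1 2.65 times (1.84 to 3.89). Mesenchyme and epithelium could not be separated in Dact2 at P0 (ratio 0.531, 0.242 to 1.10).

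Most P0 mesenchymal cells carried several of the genes at once. After thinning, the median number of the 9 genes per cell was 1 at each embryonic stage and 3 at P0. With all UMIs, 104 of 265 P0 cells held 5 or more (39.2%, 33.3 to 45.4; 30.9% thinned), against 0, 1 and 1 cell at the embryonic stages. None of the 9 genes was found in 20 of the P0 cells.

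Pi16 and Dpp4 were in the same P0 cells more often than their separate shares would give. Both were found in 97 cells, Pi16 alone in 28, Dpp4 alone in 30 and neither in 110, where the product of the 2 shares is 59.9 cells. Dpp4 was in 77.6% of the cells with Pi16 (69.3 to 84.6) and in 21.4% of those without (14.9 to 29.2). After thinning, both were in 79 cells against a product of 44.8, and Dpp4 was in 69.9% of the cells with Pi16. Deeper cells detect more genes, and the median depth was 10106 UMIs in cells with both and 7695.5 in cells with neither.

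The other genes followed the same cells to different degrees. Of the 125 cells with Pi16, 121 held Cd34 (96.8%), 98 Ly6c1 (78.4%), 97 Anxa3 (77.6%), 88 Cd55 (70.4%), 46 Limch1 (36.8%), 45 Efhd1 (36%) and 6 Dact2 (4.8%). Cd34 was also in 64.3% of the cells without Pi16, while Ly6c1 was in 25% and Anxa3 in 27.9% of them. Among the 28 pairs without Dact2, which was found in 9 cells only, the number of cells with both genes exceeded the product of shares in 28, with all UMIs and after thinning. Of all pairs among the 7525 genes found in at least 20 cells, 64.9% did so, and 50.6% after thinning. The intervals of the shares with and without the first gene were separate in 27 of the 28 pairs, against 1.17% of all pairs. After thinning they were separate in 25, against 0.364%. The pairs of all genes were not matched to the 28 pairs for the number of cells that hold each gene. The genes of the 28 pairs were each in 61 to 211 cells. The part of this mismatch in the differences was not tested. The genes were also chosen with earlier results of these data known, which limits the comparison with all pairs.

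**Figure D4:**
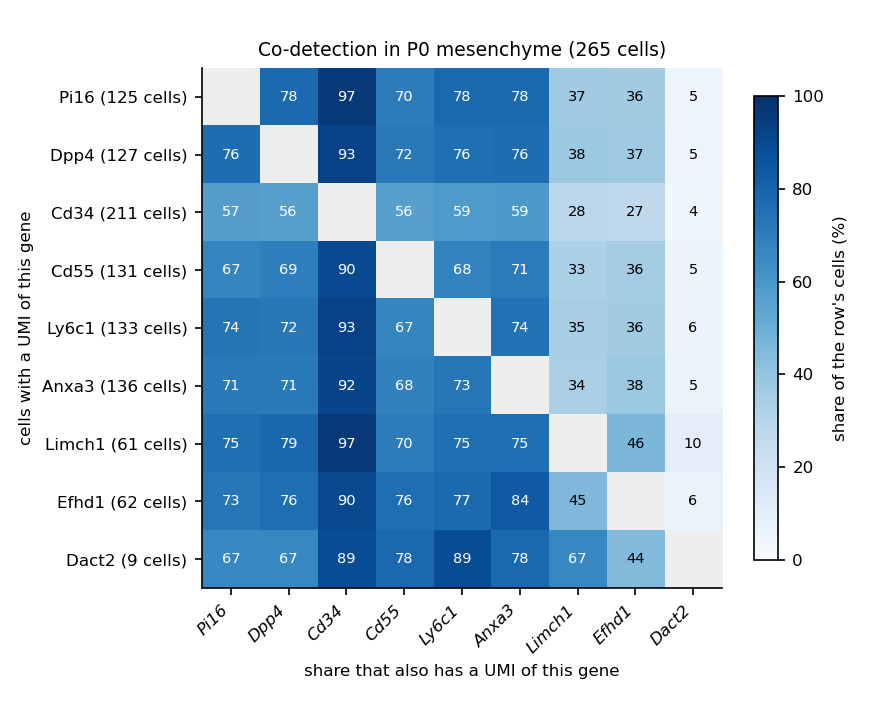
Share (percent, color scale) of the P0 mesenchymal cells with a UMI of the row gene that also hold a UMI of the column gene, for all pairs of the 9 genes in 265 cells. The Pi16 row is dark for Dpp4 (77.6%), Cd34 (96.8%), Ly6c1 (78.4%), Anxa3 (77.6%) and Cd55 (70.4%), and the Dact2 row rests on 9 cells.

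Before birth, co-detection could only be listed. At E14.5 the 4 cells with Pi16 were the 4 cells with Cd55, out of 31, and 1 of them also held the only Dpp4 UMI, while 2 of the 4 were called doublets. At E15.5, 4 of the 5 cells with Dpp4 also held Cd55, and 1 cell held both Pi16 and Dpp4. No E13.5 cell held both.

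P0 cells with both Pi16 and Dpp4 were compared with those holding neither for 3 gene lists, whose choice was not independent of these libraries, since several of their genes were named for P0 clusters in the study. In the progenitor fibroblast list, 17 of 20 genes were at least 2-fold higher in cells with both and none was lower, against 3.46% higher and 3.87% lower among all genes, and its median log2 ratio was 1.62 against -0.00 over all genes. The matrix glycoprotein Fn1 was 3.30 times higher (3.11 to 3.51), the microfibril genes Fbn1 4.25 times (3.92 to 4.62) and Mfap5 4.57 times (4.18 to 5.01), and Clec3b 2.17 times (2.00 to 2.36). Gfpt2, Procr and Il33, at 1.18, 0.719 and 0.873, were the 3 that did not reach 2-fold.

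The pre-adipocyte list went the other way, with 10 of 15 genes at least 2-fold lower in cells with both, none higher, and a median log2 ratio of -1.504. The lipoprotein lipase gene Lpl was at 0.349 times the level of cells with neither (0.317 to 0.384), Col4a1 at 0.159 (0.136 to 0.184) and the fatty acid carrier Fabp4 at 0.0689 (0.0509 to 0.0915), whereas the preadipocyte factor Dlk1, at 0.983 (0.951 to 1.02), did not differ beyond counting error. Of 10 elastic matrix genes 2 were lower and none higher (median log2 ratio -0.42), with Postn at 1.62, Eln at 1.21, Mfap4 at 0.791 and Mfap2 at 1.04. The universal fibroblast genes not used to pick the cells were also higher with both: Ly6c1 was at 309 against 56.5 CPM, Anxa3 at 366 against 70.9, Cd55 at 301 against 45.4 and Efhd1 at 75.4 against 14.4 CPM.

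Over time, 17 of the 20 progenitor fibroblast genes were at least 2-fold higher at P0 than at each embryonic stage and none lower, with median log2 ratios of 3.56, 3.36 and 3.53 from the earliest to the latest embryonic stage. Among all genes, 7.99%, 7.88% and 7.01% were as much higher and 15.4%, 18.6% and 9.83% as much lower, in the same order. The choice of the lists was not independent of these libraries, which limits this comparison too. Of the pre-adipocyte genes 12 of 15 were higher over each stage (medians 2.42, 2.34 and 2.19), with none lower. The elastic matrix list was mixed, with 5, 5 and 4 of 10 genes higher and 2, 0 and 3 lower (medians 0.85, 0.79 and 0.56), and the smooth muscle genes Tagln and Acta2 were at 0.0502 and 0.0845 times their E15.5 levels. Fn1 was 10.6 times higher at P0 than at E15.5 (10.1 to 11.1), Fbn1 16.9 times (15.8 to 18.2) and Mfap5 229 times (176 to 304). The list ratios over E15.5 were not taken without the UMI minimum. In the shallow E15.5 barcodes the 20 progenitor genes summed to 18740 CPM, against 869 CPM in the deep E15.5 cells and 14134 CPM at P0. The rise of this list from E15.5 to P0 thus depended on which barcodes were counted.

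Across the 265 P0 cells, the genes whose level was most like that of Pi16 were Sema3c (Pearson r = 0.73 over cells; 0.67 thinned), Fbn1 (0.63; 0.58), Mfap5 (0.61; 0.57), Fstl1 (0.60; 0.56) and Sparc (0.57; 0.56), among 7525 genes. For Dpp4 they were Sema3c (0.65; 0.53), Fbn1 (0.62; 0.55), Efemp1 (0.61; 0.53), Fn1 (0.57; 0.49) and Mfap5 (0.57; 0.51). Pi16 and Dpp4 had r = 0.67 with each other (0.58 thinned), above every gene named for Dpp4 and all but Sema3c of those named for Pi16. These cells share 1 library and differ in depth, so the correlations are descriptions.

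Mesenchymal cells of P0 were clustered with the 9 genes left out of the variable genes, and 4 clusters were found. Cluster 0 (88 cells), called progenitor fibroblast-like from its list, held 86.0% of the Pi16 UMIs. Pi16 was in 93.2% of its cells (85.7 to 97.5) at 914 CPM and Dpp4 in 90.9% at 396 CPM, and 74 of the 88 cells held both and none held neither. Cd34 was in all 88 cells (705 CPM), Anxa3 in 93.2%, Ly6c1 in 86.4%, Cd55 in 85.2%, Efhd1 in 48.9% and Limch1 in 47.7%, and 9 of the 12 Dact2 UMIs lay there. All 9 genes had their highest value in cluster 0, the largest of the 4. The share of all genes with their highest value there was not taken. For Dact2, cluster 0 could not be separated from cluster 1 (ratio 6.17, 0.855 to 270) or cluster 2 (2.22, 0.459 to 21.1). Nor could it be separated from cluster 3 (9 against 0 UMIs, lower limit of the ratio 0.846).

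In the pre-adipocyte-like cluster 1 (73 cells), Pi16 was in 12.3% of cells at 52.6 CPM and Dpp4 in 15.1% at 27.9 CPM. Cluster 0 was 17.4 times higher in Pi16 (12.3 to 25.2), 14.2 times in Dpp4 (8.87 to 24.2), 13.4 times in Limch1 (5.02 to 50.3), 4.03 times in Cd34 (3.30 to 4.96) and 1.90 times in Ly6c1 (1.499 to 2.42). Cluster 2 (56 cells) stayed unnamed, since Epcam and Krt8 stood among its 10 leading genes beside Pparg and Lpl. Its epithelial signal was 234 CPM of Epcam and 256 CPM of Krt8, against 17.0 and 49.9 CPM in cluster 0. Cluster 1 held 128 CPM of Epcam and 169 CPM of Krt8, and the part of this signal in the values of either cluster was not tested. Cluster 2 held Pi16 in 35.7% of cells at 125 CPM.

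Ly6c1 was spread in another way. It was at 282 CPM in cluster 0, 275 in cluster 2, 149 in cluster 1 and 14.9 in the elastic matrix-like cluster 3 (48 cells), where only 6.25% of cells held it. Clusters 0 and 2 could not be separated (ratio 1.03, 0.827 to 1.28), whereas cluster 0 was 19.0 times higher than cluster 3 (8.61 to 52.2). Pi16 in cluster 3 was at 119 CPM, in 29.2% of cells, near its level in cluster 2 (ratio of cluster 2 to 3 of 1.05, 0.703 to 1.57). The skeletal actin gene Acta1, a muscle transcript, was among the leading genes of cluster 3, with 65 of its 68 UMIs in that cluster.

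**Figure D5:**
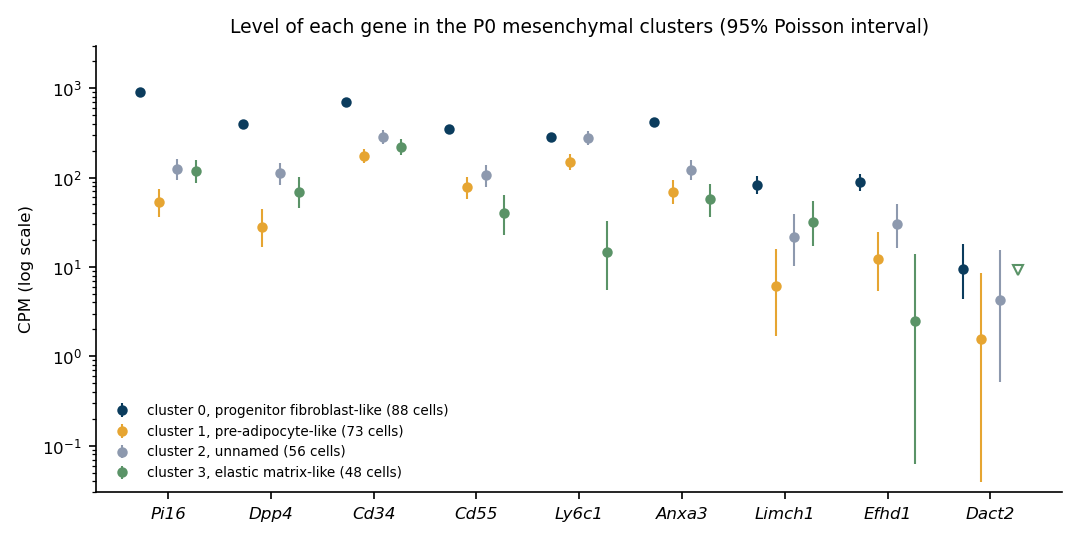
Level of each gene in the 4 clusters of P0 mesenchymal cells (CPM, log scale, 95% Poisson intervals; an open triangle is an upper limit where no UMI was found). Cluster 0 (88 cells) has the highest value for every gene, from 914 CPM for Pi16 down to 9.55 CPM for Dact2, while cluster 3 has 14.9 CPM of Ly6c1 against 282 in cluster 0. For Dact2, cluster 0 could not be separated from any other cluster, and for Ly6c1 not from cluster 2. The share of all genes with their highest value in cluster 0 was not taken.

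At E15.5 the few UMIs of Dpp4 and Cd55 were not spread evenly over the mesenchyme. In the dermal mesenchyme-like cluster 1 (74 of 279 cells), all 10 detected genes of the progenitor fibroblast list were raised. Detection was judged in this same cluster, which favors genes that are high there, and the share of all genes raised was not taken. The list was also chosen with earlier results of these data known. Cluster 1 held all 10 Dpp4 UMIs, in 5 cells, and 87 of the 94 Cd55 UMIs, in 24 cells (32.4%). It held 9 of the 11 Pi16 UMIs, all in 1 cell that also had 28 of the Cd55 UMIs. Cd34 was at 212 CPM there, against 149 CPM in the sub-epithelial mesenchyme-like cluster 0 (81 cells; ratio 1.42, 1.21 to 1.67). Limch1 had the opposite pattern, at 7.85 CPM in cluster 1 and 45.5 CPM in cluster 0 (ratio 0.172, 0.0858 to 0.316). At E13.5, Cd34 was at 44.8 to 53.3 CPM and Limch1 at 81.4 to 110 CPM in the 3 clusters, with overlapping intervals.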

How the data were processed

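Single-cell RNA-seq of cells sorted by EpCAM was available for 4 stages, with 1 library each. The authors deposited counts, the number of UMIs per gene and barcode without normalization, made with Cell Ranger on the mm10 reference from 10x Genomics 3′ libraries. The E15.5 file header gives version 3.1.0 of that program and the other 3 headers give 6.0.0. The gene list differs too, with 31053 genes at E15.5, 32285 at each other stage and 30406 listed at every stage. The part of this difference in ratios that involve E15.5 was not tested. Every barcode has at least 500 UMIs. Total mesenchymal UMIs were 2338156, 838030, 7106018 and 2457082 from E13.5 to P0, and these set the counting precision.

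The genes and lists were chosen with earlier results of these data known. Named genes were the 9 members, the 5 genes outside the members most correlated with Pi16 and with Dpp4 (log of 1 plus UMIs per 10000, genes in at least 20 cells), the 3 lists, described by their counts, their medians and the genes with the highest mean level, and near-identical Ly6 neighbours. Other genes, such as those that lead a cluster, were named after their values were seen.

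A level is the sum of a gene's UMIs over cells, as CPM and with an exact Poisson interval, a ratio has the exact conditional binomial interval, and a share has the Clopper-Pearson interval, all at 95%. Against 0 UMIs, a bound was computed from 3 counts over the group. Genes counted as 2-fold apart had 10 CPM added and at least 10 UMIs over both sides. Cells of 1 library are not replicates, so no test was run. Epithelial cells of the same library were the comparison, which does not part free RNA from their own expression. Doublets were kept and called with Scrublet in scanpy 1.11.5 (0, 11, 3 and 3 of all kept cells). Sums used Python 3.11.15, numpy 2.4.6, scipy 1.17.1 and pandas 2.3.3, and figures matplotlib 3.10.9. Mesenchymal cells of E13.5, E15.5 and P0 were clustered by stage with Seurat 5.3.0 and sctransform 0.4.2 in R 4.3.3 (2000 variable genes without the 9 members, 15 components, resolution 0.8). A cluster was named from marker lists, with a gene raised from a log2 ratio of 0.5 over the other cells and detected in at least 25% of the cluster. The 31 E14.5 cells were not clustered. The calculation of folds and intervals was checked on simulated Poisson counts. These had no variation between cells or libraries, so the check does not show how well the intervals hold for these data. Start regions were matched for 8 of the 9 members in RefSeq on GRCm38.p6.

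Alternatives were other depth, mitochondrial and collagen limits, removal of doublets or of cells with markers of other cell types, thinning, other scalings and clusterings. Another 3 were added after seeing the data: leaving out the E15.5 cell with the most Pi16, leaving out gated cells with a keratin or Epcam UMI, and no UMI minimum.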

Additional observations from a re-analysis of the deposited data

Results flagged for a closer look

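The tissue with more Dpp4 differed between stages. The log2 ratio of mesenchyme over epithelial cells was 6.16 at P0 (471 against 7 UMIs) and -1.21 at E15.5 (10 against 46 UMIs), and the difference between the stages was not tested, with 1 library each. The E15.5 ratio was 1.74 when barcodes below 5000 UMIs were included.

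Both Pi16 and Dpp4 had signal in barcodes that the depth and mitochondrial limits remove. At E15.5 the 1826 barcodes left out held 819 Pi16 UMIs in 255 barcodes, up to 15 in 1 barcode, and 97 Dpp4 UMIs in 84 barcodes, while the 746 left out at E13.5 held 0 and 2 UMIs and the 731 at E14.5 held 1 and 0. At P0 the 963 barcodes left out held 100 Pi16 and 57 Dpp4 UMIs, in 63 and 42 barcodes. The source of these UMIs was not tested.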

How the results depend on the processing

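No paired analysis was possible because each stage has 1 library. Each pair of a value and an alternative setting was counted, and pairs that share cells are not independent. Among the values that answer a comparison, 217 pairs left the value within counting error or, for counts, within 1.5 times, and 11 moved it. Among the pairs of the other values, 1854 did not move, 200 moved and 6 changed direction. The share of P0 cells with Dpp4 among those with Pi16 stayed between 69.9% and 77.8%, and that of cells with Pi16 in the progenitor cluster between 92.1% and 94.1%. Leaving out cells with mural markers turned the log2 ratio of Cd55, mesenchyme over epithelium at E14.5, from 2.19 to -0.68, lowered the count of genes higher in mesenchyme at E14.5 from 2 to 1 and that of genes present at E14.5 from 2 to 1. Without a UMI minimum, the log2 ratio of Dpp4, mesenchyme over epithelium at E15.5, turned from -1.21 to 1.74 and the count of genes higher in mesenchyme rose from 3 to 5. The log2 ratio of Limch1, P0 over E14.5, turned from -0.57 to 0.17 without Scrublet doublets, 0.022 without cells with mural markers, 0.093 with median-of-ratios scaling and 0.035 without cells with a keratin or Epcam UMI. The log2 median of ratios that this scaling removes was -0.51 for P0 over E13.5, -0.66 over E14.5 and -0.27 over E15.5. Without the E15.5 cell with the most Pi16, and with the other cells thinned anew, 1 gene was present at E15.5 rather than 2. The share of all genes at least 2-fold higher at P0 went from 7.99% to 13.9% (1 CPM added) and 12.4% (median-of-ratios) over E13.5, from 7.88% to 13.9%, 14.52% and 5.12% (every gene with a UMI) over E14.5, and from 7.01% to 13.8% (1 CPM added) over E15.5. With 1 CPM added, 1 pre-adipocyte gene rather than 0 was higher in cells with both Pi16 and Dpp4. The causes were not tested. The number of cells limits E14.5 most, where 31 cells allow a share of cells with a UMI of up to 9.68% for a gene with none.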

Other observations

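A single E15.5 mesenchymal cell, chosen after its values were seen, held more of the 9 genes than any other mesenchymal cell of that stage. This cell of 27996 UMIs, in the dermal mesenchyme-like cluster, held 7 of the 9 universal fibroblast genes: 9 UMIs of Pi16, 1 of Dpp4, 10 of Cd34, 28 of Cd55, 16 of Anxa3, 4 of Limch1 and 4 of Efhd1. No other E15.5 mesenchymal cell had more than 1 UMI of Pi16, 7 of Cd55, 2 of Anxa3 or 1 of Efhd1. Dpp4, Cd34 and Limch1 reached 4, 14 and 11 UMIs in other cells. The chosen cell held a UMI of 15 of the 20 progenitor fibroblast genes, against a median of 5 and a highest value of 12 in the other 278 cells. It held 220 UMIs of that list against at most 109. Mfap5 (42 UMIs), Fbn1 (39), Sema3c (22) and Wnt2 (13) were each higher in it than in any other cell. It had 0 UMIs of Ly6c1 and Ly6a, 0 of Epcam and 5 of Xist, where the other cells had a median of 22.5, and it was not called a doublet. At P0, Ly6a was in 74.7% of mesenchymal cells and in 51.8% of the cells with neither Pi16 nor Dpp4.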
